A study of Mus musculus with 84 samples.

Results

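The immediate early transcription factors of the EGR, FOS and NR4A families were followed in MMC9s, the IL-9-producing mucosal mast cells of the mouse small intestine. The 10 genes were taken by name from a list: Egr1, Egr2, Egr3, Fos, Fosb, Ier2, Atf3, Nr4a1, Nr4a2 and Nr4a3. All 10 were found among the 55471 genes counted. Bulk RNA-seq covered 3 genotypes on a BALB/c background, 1 library each. They were IL4RaY709F, in which the alpha chain of the IL-4 receptor carries a gain-of-function change, IL4Ra-/-, which has lost that chain's function, and wild type (WT). Bone marrow progenitors of each genotype had been placed in WT mice sensitized to ovalbumin, so the hosts were WT in all 3 groups, and 7 oral ovalbumin challenges followed at 3 per week. The sources used here name neither the gate of the bulk sort nor a marker that tells donor from host MMC9s. Each bulk RNA was a pool of 12 to 20 biological replicates, so 1 library stands for 1 genotype and no spread between animals can be seen. WT MMC9s sequenced singly made up the rest of the study. They came from mice given ovalbumin by sensitization and repeated oral challenge, and were gated as c-Kit+, ST2+, IL-4GFP high and low in β7-integrin, without lineage markers (Lin-) or IL-17RB2 (IL-17RB2-). Of 81 such cells, 80 had at least 10000 reads in genes and were used. No animal is named for them, so they count as 1 sample.

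Immediate early genes are transcribed within minutes of a stimulus, without new protein synthesis, by factors that already sit in the cell, such as CREB and serum response factor. Their products are mostly transcription factors: EGR proteins are zinc fingers that bind GC-rich sites, FOS proteins pair with JUN proteins to form AP-1, and NR4A proteins are orphan nuclear receptors. In mast cells they switch on after crosslinking of the IgE receptor and take part in the control of cytokine genes and of their own negative feedback. The same genes are known to switch on during enzymatic tissue digestion, a step for which the sources used here give no settings.

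The bulk libraries held 2521791 (IL4RaY709F), 2330628 (IL4Ra-/-) and 2299793 (WT) gene reads, so that 3 reads equal 1.18 to 1.31 CPM (counts scaled to a common library total). The kept cells held 163596 to 2210211 gene reads. The cell type label was checked on 14 mast cell markers. All 14 had reads in each bulk library, and 78 of the 80 cells had at least 10 reads in 10 or more of them. No cell had fewer than 9, also among the cells against their label described below. At this depth the count therefore does not tell mast cells from other cells. Transcripts of other cells differed between the bulk libraries. The 14 macrophage or monocyte markers summed to 96.7 CPM in IL4RaY709F and 626 CPM in IL4Ra-/-, against 186 CPM in WT, and none of them was at 0 in any library. Plasma cell markers summed to 3171 CPM in IL4RaY709F and 13498 CPM in IL4Ra-/-, against 6685 CPM in WT, where Mzb1 was at 0. Dendritic or B cell antigen presentation markers summed to 265 CPM in IL4RaY709F and 797 CPM in IL4Ra-/-, against 310.2 CPM in WT, with Flt3 at 0 in IL4RaY709F and WT. Among the single cells, 2 had over 40% immunoglobulin reads and went against their label. In 1 of them 73.2% of the reads were immunoglobulin, and it had only 6.43 CPM of Kit and 40.8 CPM of the mast cell protease gene Cpa3. The second had 48.1% immunoglobulin reads, 78.4 CPM of Kit and 187 CPM of Cpa3. Over 20% mitochondrial reads were found in 11 cells, the second of these among them. Cell results are given for all 80 cells and, where they move, also for the 68 cells that remain without both kinds.

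Promoter sequences are shown for the members that moved with one another or that stood apart between the data sets. RefSeq had an entry for 7 of the 10 members on GRCm38.p6. Each window lies before a transcription start, 5′ to 3′ on the gene's strand. It is cut where an annotated exon, which can be the gene's own, begins before that start. Capitals mark letters of motifs searched on both strands: TGACG, the half-site bound by CREB and related factors (CGTCA on the other strand), GCGNGGGCG, the EGR site (also searched in reverse complement), and the CArG box of serum response factor.
Nr4a1 promoter, chr15:101266596-101266845, plus strand: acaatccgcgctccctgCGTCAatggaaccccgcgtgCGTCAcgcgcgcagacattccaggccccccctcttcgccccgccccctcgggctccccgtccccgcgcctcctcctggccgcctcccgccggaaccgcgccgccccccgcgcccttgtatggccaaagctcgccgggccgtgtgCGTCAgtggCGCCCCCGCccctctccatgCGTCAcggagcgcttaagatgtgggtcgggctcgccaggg
Nr4a2 promoter, chr2:57124004-57124253, minus strand: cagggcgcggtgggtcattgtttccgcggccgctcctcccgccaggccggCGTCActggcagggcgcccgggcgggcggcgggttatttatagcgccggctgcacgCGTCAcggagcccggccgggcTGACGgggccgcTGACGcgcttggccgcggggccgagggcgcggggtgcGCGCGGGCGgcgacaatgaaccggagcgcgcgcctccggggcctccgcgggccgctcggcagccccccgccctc
Nr4a3 promoter, chr4:48045055-48045152, plus strand: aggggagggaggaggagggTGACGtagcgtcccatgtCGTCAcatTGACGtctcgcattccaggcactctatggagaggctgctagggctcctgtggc
Egr2 promoter, chr10:67537619-67537868, plus strand: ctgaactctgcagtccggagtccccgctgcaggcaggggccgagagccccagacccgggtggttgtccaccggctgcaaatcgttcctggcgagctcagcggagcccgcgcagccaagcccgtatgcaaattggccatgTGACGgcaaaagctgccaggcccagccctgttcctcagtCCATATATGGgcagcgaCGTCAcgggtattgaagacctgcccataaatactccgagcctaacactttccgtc
Fos promoter, chr12:85473640-85473889, plus strand: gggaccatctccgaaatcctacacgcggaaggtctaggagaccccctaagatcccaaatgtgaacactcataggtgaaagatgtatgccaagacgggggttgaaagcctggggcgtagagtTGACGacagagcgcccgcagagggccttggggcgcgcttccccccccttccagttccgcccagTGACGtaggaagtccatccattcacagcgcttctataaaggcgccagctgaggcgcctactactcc
Fosb promoter, chr7:19310052-19310295, minus strand: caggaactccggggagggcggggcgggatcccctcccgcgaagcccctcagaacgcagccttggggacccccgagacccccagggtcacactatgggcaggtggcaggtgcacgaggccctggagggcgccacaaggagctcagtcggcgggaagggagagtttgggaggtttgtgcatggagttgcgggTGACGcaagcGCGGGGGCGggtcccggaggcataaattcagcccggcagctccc
The 3 NR4A windows each held several half-sites: Nr4a1 held 4 and Nr4a2 held 4 in 250 bases, and Nr4a3 held 3 in its 98 bases. Among 32851 mouse promoters, 17.8% held at least 1 in a window of 250 bases and 5.22% in one of 98 bases. The shorter windows were the 98 bases farthest from each start, and none of these comparison windows was cut at exons. The Nr4a3 window ends directly before the gene's start in the count tables, so it and the shorter windows are not alike in place. Fos held 2, Egr2 2 and Fosb 1, and none was found in the 243 bases of Atf3. The EGR site occurred once each in Nr4a1, Nr4a2 and Fosb, and 4.70% of all windows of 250 bases held one. Egr2 alone among the 7 held a CArG box, which 1.47% of windows of 250 bases held. Neither the full CREB palindrome TGACGTCA nor the AP-1 motif TGANTCA was found in any of the 7 windows. A match describes the letters only, and no binding was measured. The Nr4a1 and Egr2 windows and the Atf3 window (not printed) lie inside the gene span of the count tables, before an internal start. Of the members without a printed window, Egr3 spans chr14:70077203-70082614 on the plus strand, Ier2 chr8:84661331-84662854 on the minus strand and Atf3 chr1:191170296-191218039 on the minus strand (GRCm38, as in the count tables).

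The members were abundant in all 3 bulk libraries. Together they took 2.01% of gene reads in IL4RaY709F and 2.25% in IL4Ra-/-, against 2.27% in WT. Fosb, a FOS family partner of JUN, was by far the largest, with 9961 CPM in IL4RaY709F and 8347 CPM in IL4Ra-/-, against 11120 CPM in WT. That gave it rank 4, 4 and 3 by CPM among all genes of those libraries, and it made up 45.7%, 40.5% and 48.8% of the members' CPM. Per length of transcript, as CPM per kilobase (RPKM), the order in each library was Fosb, Fos and Nr4a1. Their WT levels were 1781, 1229 and 924 RPKM. Ier2 (479 RPKM in WT) and Egr1 (449 RPKM) followed at similar levels, and they changed places in IL4Ra-/-. Atf3 stood at 277 RPKM, Nr4a3 at 175, Egr3 at 138, Nr4a2 at 88.5 and Egr2 last at 59.1 in WT. In both mutants Nr4a3 stood above Atf3. Neighbours in this order, such as Ier2 and Egr1, have no replicate spread to be judged against.

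**Figure D1:**
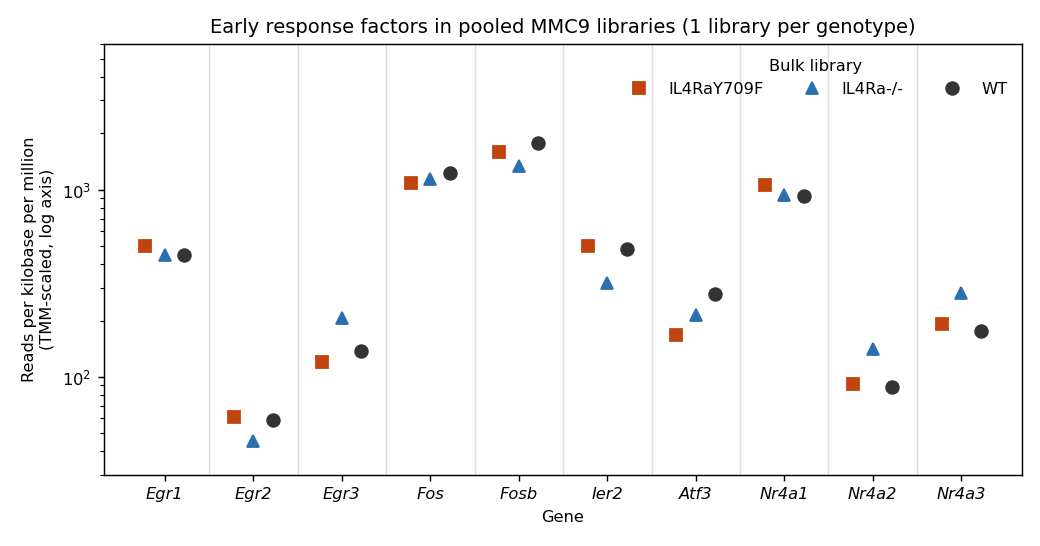
Level of each member (x axis) as CPM per kilobase (RPKM, y axis, log scale) in the IL4RaY709F, IL4Ra-/- and WT bulk libraries, 1 point per library and no replicates. Fosb, Fos and Nr4a1 lead in all 3 libraries, and the IL4Ra-/- points stand above WT for Egr3, Nr4a2 and Nr4a3 and below it for Ier2.

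The first comparisons asked whether the state of the IL-4 receptor went with the level of these factors. A gene was called by size when the larger library had at least 50 reads, the ratio was at least 2-fold, and its exact 95% interval for counting error excluded a ratio of 1. None of the 10 members was called in IL4RaY709F against WT, where 2.45% of 5964 genes were called in either direction (1.68% higher and 0.771% lower). None was called in IL4Ra-/- against WT either, where 3.73% of 6246 genes were (2.43% higher and 1.3% lower). Between IL4RaY709F and IL4Ra-/- again none was called, against 8.12% of 6319 genes (4.62% higher and 3.5% lower). The median log2 ratio of the members to WT was 0.05 in IL4RaY709F, against 0.02 over all genes tested, and -0.06 in IL4Ra-/-, against -0.08. Both comparisons use the same WT library, and no p-value is given since each genotype has 1 library. In a pool of sorted cells, fewer cells of a type and less RNA per cell cannot be told apart.

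Egr1, a zinc finger factor induced by growth and stress signals, had 2233 CPM in IL4RaY709F and 2010.3 CPM in IL4Ra-/-, against 2011 CPM in WT. The IL4Ra-/- and WT values nearly coincided, with a log2 ratio of -0.00084 (95% interval -0.06 to 0.06), a sign that turned under both other scalings tried. Egr2, known for its part in limiting lymphocyte activation, had 208 CPM in IL4RaY709F and 155 CPM in IL4Ra-/-, against 201 CPM in WT. Its log2 ratio in IL4Ra-/- was -0.38 (-0.58 to -0.18). Egr3, a close relative of Egr2 with overlapping roles in T cells, went the other way in that library, with 530.1 CPM in IL4RaY709F and 910.0 CPM in IL4Ra-/-, against 606 CPM in WT. Its log2 ratio was 0.59 (0.49 to 0.68) in IL4Ra-/- and -0.19 (-0.31 to -0.08) in IL4RaY709F. So within the EGR family the 3 genes showed 3 patterns in the IL4Ra-/- library: level with WT, below it and above it.

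The NR4A receptors also split. Nr4a1, also called Nur77 and best known as a reporter of antigen receptor signaling in lymphocytes, had 3697 CPM in IL4RaY709F and 3301 CPM in IL4Ra-/-, against 3244 CPM in WT. Its ratio to WT was 1.14 (1.10 to 1.18) in IL4RaY709F and 1.02 (0.986 to 1.05) in IL4Ra-/-. Nr4a2, or Nurr1, which is needed for dopamine neurons to form, had 372 CPM in IL4RaY709F and 570.2 CPM in IL4Ra-/-, against 359 CPM in WT. Nr4a3, or NOR-1, had 1142 CPM in IL4RaY709F and 1682 CPM in IL4Ra-/-, against 1047 CPM in WT. Both stood apart in the same library: the ratio of IL4Ra-/- to WT was 1.59 (1.46 to 1.73) for Nr4a2 and 1.61 (1.53 to 1.69) for Nr4a3, while in IL4RaY709F the ratios were 1.04 (0.94 to 1.14) and 1.09 (1.03 to 1.15). Egr3, Nr4a2 and Nr4a3 were thus the 3 members past 1.5-fold on the high side in IL4Ra-/-, where 6.52% of all genes tested passed that lower mark. Egr3 stood at the line itself in IL4Ra-/-, with a ratio to WT of 1.5005 (1.40 to 1.60). The macrophage, plasma cell and antigen presentation markers were also highest in that library, at 3.37-fold, 2.02-fold and 2.57-fold the WT sums, as were 12 epithelial markers at 3.29-fold (89.3 CPM in IL4Ra-/-, against 27.1 CPM in WT), and their part in these ratios was not tested.

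Fosb, Ier2 and Atf3 had ratios to WT below 1 in IL4Ra-/-, as did Fos, whose sign turned there when libraries were scaled by total gene reads. Fos, the classical partner of JUN, had 2556 CPM in IL4RaY709F and 2671 CPM in IL4Ra-/-, against 2890.1 CPM in WT, ratios of 0.884 (0.854 to 0.916) and 0.924 (0.893 to 0.956). Fosb had log2 ratios of -0.16 (-0.18 to -0.13) in IL4RaY709F and -0.41 (-0.44 to -0.39) in IL4Ra-/-. Ier2, a small nuclear protein that co-regulates transcription, had 759.7 CPM in IL4RaY709F and 483 CPM in IL4Ra-/-, against 730.3 CPM in WT. The ratio of IL4Ra-/- to WT was 0.662 (0.614 to 0.713), which made Ier2 the 1 member past 1.5-fold on the low side there, where 8.85% of all genes tested were. It did not pass that mark under either other scaling. Atf3, a stress-induced factor of the ATF/CREB family that often represses its targets, had its lowest level in the gain-of-function library: 359 CPM in IL4RaY709F and 459 CPM in IL4Ra-/-, against 596 CPM in WT. At a ratio to WT of 0.601 (0.551 to 0.656) in IL4RaY709F it was the 1 member past 1.5-fold in that comparison, where 3.55% of genes were on the low side and 6.15% on the high side. In IL4RaY709F the macrophage, plasma cell and antigen presentation markers were at 0.521-fold, 0.474-fold and 0.855-fold the WT sums. The epithelial markers were at 1.13-fold and the mast cell markers at 1.43-fold. The part of such differences in the Atf3 ratio was not tested. Another annotated gene, Gm24748, lies within the Atf3 span and had 0 reads in each bulk library.

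Set directly against each other, the mutants differed most in Egr3, with a log2 ratio of IL4RaY709F to IL4Ra-/- of -0.78 (-0.88 to -0.68). Nr4a2 (-0.62), Nr4a3 (-0.56) and Atf3 (-0.36) were lower in IL4RaY709F, and Ier2 (0.65), Egr2 (0.43) and Fosb (0.26) were higher. Past 1.5-fold were Egr3 and Nr4a2 on the low side, as were 8.36% of all genes tested, and Ier2 on the high side, as were 14.6%. Scaling by total gene reads in place of the trimmed mean shifts every log2 ratio of IL4RaY709F to IL4Ra-/- by -0.24, of IL4RaY709F to WT by -0.11 and of IL4Ra-/- to WT by 0.13. Under it the Egr3 ratio of IL4RaY709F to IL4Ra-/- was -1.02, past the 2-fold line. Of the 30 log2 ratios of members, 7 turned sign under that scaling. They were Egr2, Ier2 and Nr4a2 in IL4RaY709F against WT, Egr1 and Fos in IL4Ra-/- against WT, and Egr1 and Nr4a1 in IL4RaY709F against IL4Ra-/-. The 1.5-fold members named above kept their direction under both other scalings, but Ier2 did not keep its size. In IL4Ra-/- against WT it fell short of 1.5-fold with total gene reads (-0.46) and with DESeq2 size factors (-0.58), and in IL4RaY709F against IL4Ra-/- with total gene reads (0.41).

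**Figure D2:**
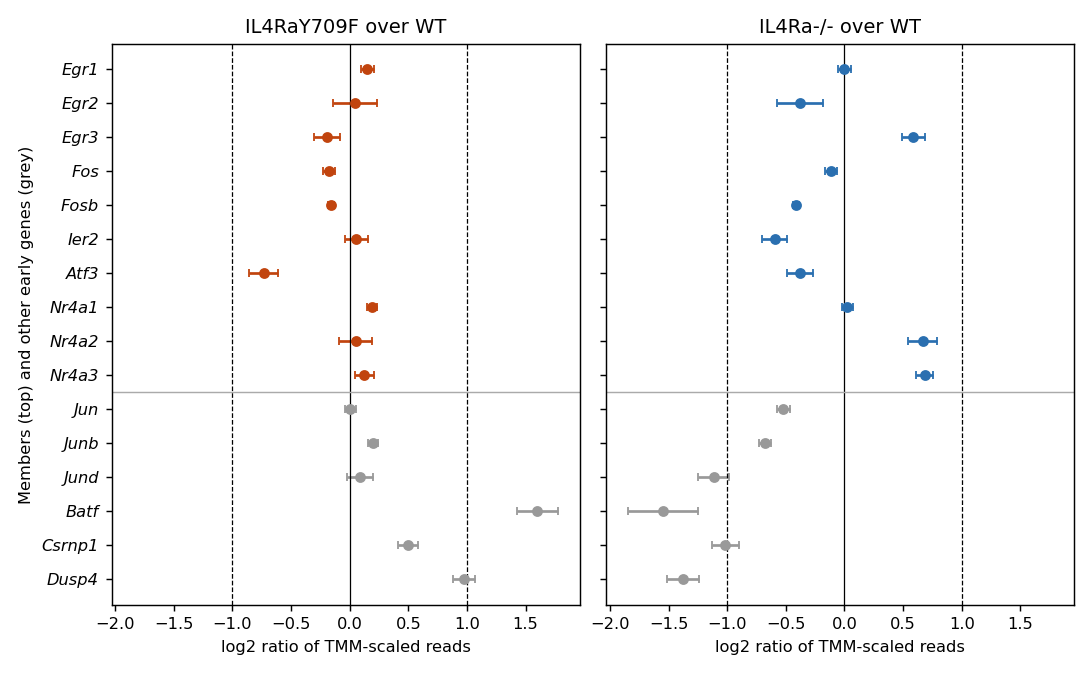
The x axis is the log2 ratio of TMM-scaled reads in IL4RaY709F over WT (left panel) and IL4Ra-/- over WT (right panel), with exact 95% intervals for counting error; rows are the 10 members and, in grey, 6 other early genes. Dashed lines mark 2-fold: no member reaches either line, while Batf lies past it in both panels and Jund, Csrnp1 and Dusp4 lie past it in the right panel.

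A few other genes of the same pathways were called. Of 12 AP-1 partners and other AP-1 or CREB/ATF genes, 10 could be tested. In IL4RaY709F, 1 was higher than in WT and none lower, where 1.68% and 0.771% of all genes were. In IL4Ra-/- none was higher and 2 were lower, where 2.43% and 1.3% of all genes were. The gene called in both was Batf, an AP-1 factor that pairs with JUN proteins at IRF sites, at 456 CPM in IL4RaY709F and 51.5 CPM in IL4Ra-/-, against 151 CPM in WT. Jund, a JUN protein that is present before stimulation, had 609.7 CPM in IL4RaY709F and 265 CPM in IL4Ra-/-, against 575 CPM in WT, a log2 ratio of -1.12 (-1.25 to -0.98) in IL4Ra-/-. Jun and Junb, the induced JUN genes, were not called there, with log2 ratios of -0.52 and -0.68. The Jund call was lost when libraries were scaled by total gene reads (-0.98), which shifts the ratios as given above. Over this list the median log2 ratio to WT was 0.29 in IL4RaY709F, against 0.02 over all genes tested, and -0.52 in IL4Ra-/-, against -0.08. In the IL4Ra-/- library the ratios to WT were thus 0.924 for Fos and 0.751 for Fosb, and between 0.461 and 0.697 for the 3 JUN genes.

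Among 30 other early response genes, 25 were tested in IL4RaY709F and none was called, and 26 were tested in IL4Ra-/-, where Csrnp1, a nuclear protein induced by AXIN1, was called lower with a log2 ratio of -1.02 (-1.13 to -0.90). Over all genes tested, 2.45% were called against WT in IL4RaY709F and 3.73% in IL4Ra-/-, where 1.3% were lower. Csrnp1 stood at the 2-fold line, and its call was lost both with total gene reads (-0.88) and with DESeq2 size factors (-0.997). Of 6 MAP kinase phosphatases, which switch off the kinases that induce immediate early genes, 1 was called in IL4Ra-/-. This was Dusp4, at 1230 CPM in IL4RaY709F and 241 CPM in IL4Ra-/-, against 626 CPM in WT. Its log2 ratio was -1.37 in IL4Ra-/- and 0.97 in IL4RaY709F, the second just short of 2-fold. Dusp1, the best known of them, was not called, with log2 ratios of -0.17 in IL4RaY709F and -0.05 in IL4Ra-/-. None of the upstream factors and kinases was called, and Srf, the serum response factor gene, had log2 ratios of 0.35 (-0.09 to 0.79) in IL4RaY709F and -0.25 (-0.73 to 0.23) in IL4Ra-/-. The EGR co-repressor Nab2, itself an EGR target, had 81.7 CPM in IL4RaY709F and 89.3 CPM in IL4Ra-/-, against 147 CPM in WT, log2 ratios of -0.85 and -0.72 that were not called. Nab1 had log2 ratios of -0.08 and -0.17. None of 11 heat shock and cell stress genes tested was called in either comparison with WT.

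Cytokine and chemokine genes of activated mast cells, among them known AP-1 targets, were called in both comparisons. Of 11 tested in IL4RaY709F, 5 were called higher and none lower: Il13, Il6, Ccl7, Il10 and Il9. Over all genes 1.68% were called higher and 0.771% lower. The 14 mast cell markers summed to 97417 CPM in IL4RaY709F, against 68020 CPM in WT, or 1.43-fold, and their part in these calls was not tested. Il13 had 629 CPM in IL4RaY709F and 337 CPM in IL4Ra-/-, against 289 CPM in WT, and Il6 had 789 CPM in IL4RaY709F and 299 CPM in IL4Ra-/-, against 359 CPM in WT. Their log2 ratios to WT in IL4RaY709F were 1.12 and 1.14. In IL4Ra-/-, 2 of 11 tested were called higher, Csf2 at 25.6 CPM against 10.9 CPM in WT and Cxcl2 at 33.8 CPM against 14.9 CPM in WT, where 2.43% of all genes were called higher. Each was detected in 1 of the 80 single cells, and in this bulk library the macrophage, plasma cell, antigen presentation and epithelial markers were above WT, as given above. The part of other cells in these 2 calls was not tested. Ratios of the members to WT in IL4RaY709F lay between 0.601 and 1.14 in the same pair of libraries.

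In single WT cells the members were also widespread, but in another order. Egr1 had at least 10 reads in 79 of 80 cells (98.8%, exact 95% interval 93.2% to 99.97%). Fos was detected in 70, Ier2 in 68, Egr3 in 66, Fosb in 64, Nr4a1 in 61 and Nr4a3 in 50 cells. The remaining 3 were detected less often: Egr2 in 33 (41.2%, 30.4% to 52.8%), Nr4a2 in 33 and Atf3 in 27 (33.8%, 23.6% to 45.2%). These intervals cover only the number of cells counted in this 1 sample, not other sorts or animals. The shares depend on depth, as the median share over the members was 66.9% with every cell thinned to the 163596 reads of the shallowest one, against 78.1% with all reads.

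Levels spread over several orders of magnitude between cells. Egr1 ran from 7.36 to 18008 CPM, with a median of 2919 CPM. Fos ran from 0 to 10235 CPM (median 410.3), Egr3 from 0 to 5145 CPM (median 308), Nr4a1 from 0.700 to 4085 CPM (median 237), and Fosb from 0 to 5807 CPM (median 159). Egr1 was thus detected in nearly every cell, although its lowest cell was at 7.36 CPM. The others ran down to 0 CPM, or to 0.700 CPM for Nr4a1. Ier2 had the lowest top cell, from 0 to 1522 CPM around a median of 138 CPM. Nr4a3 had a median of 42.1 CPM and a highest cell at 3669 CPM. Egr2 had a median of 1.73 CPM and a highest cell at 1546 CPM, and Nr4a2 a median of 0.946 CPM and a highest cell at 1743 CPM. Atf3 had a median of 1.48 CPM and a highest cell at 5524 CPM. No read was found in 25 cells for Atf3, 27 for Egr2 and 28 for Nr4a2. The 8 highest cells held 75.7% of the CPM for Atf3, 69.9% for Nr4a2, 65.6% for Egr2 and 60.3% for Nr4a3. So a few cells carried most of the level of these 4, whereas the same share was 32.03% for Egr1. Per length, the median cell had 651 RPKM of Egr1, 174 of Fos, 90.5 of Ier2, 70.01 of Egr3, 67.5 of Nr4a1, 25.5 of Fosb and 7.03 of Nr4a3. Atf3, Egr2 and Nr4a2 each had under 1 RPKM. The order of the median cell thus put Egr1 first and Fosb sixth, where the bulk libraries put Fosb first.

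Most cells carried several members at once. The median cell had 7 of the 10 with at least 10 reads, and 52 of 80 cells (65%) had 7 or more. All 10 were detected in 7 cells, and 1 cell had only 1. A minority of cells held a whole EGR or NR4A family. Counts of genes detected together rise with the number of cells in which each is detected. The counts below were not set against that, so they do not show that family members go together. All 3 NR4A genes were detected in 22 cells, 2 of them in 31, 1 in 16 and none in 11. All 3 EGR genes were detected in 32 cells and 2 of them in 35. Of the FOS pair, most cells had both. Fos and Fosb were detected together in 58 cells, Fos without Fosb in 12, Fosb without Fos in 6 and neither in 4. Of the 68 cells without high immunoglobulin or mitochondrial reads, 48 (70.6%) had 7 or more members.

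**Figure D3:**
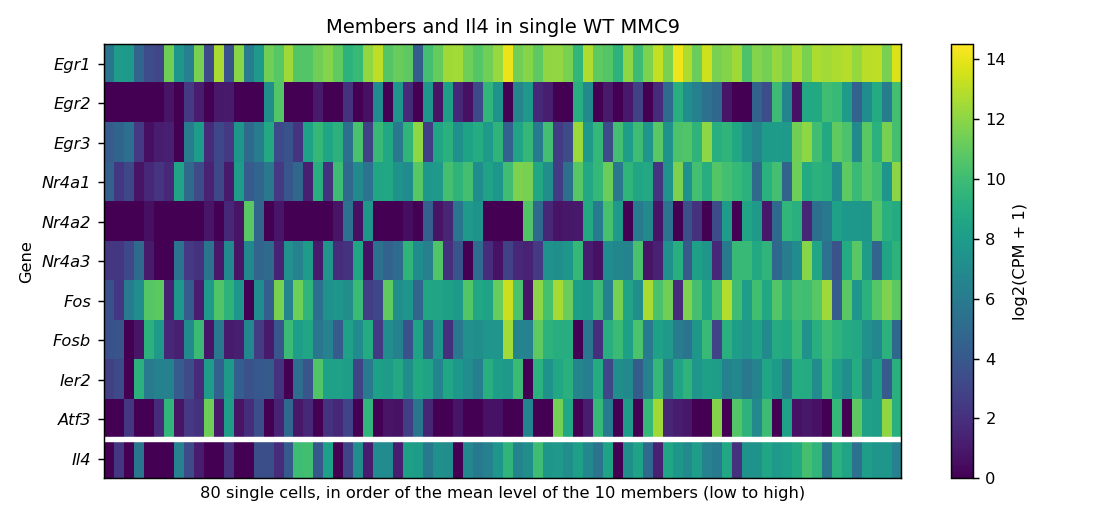
Level of each of the 10 members and, below the white line, of Il4, as log2(CPM + 1) (colour), in each of the 80 single WT cells. Cells are ordered along the x axis by the mean level of the members, so the rise of the members from left to right is the ordering itself, while Il4 was not used for it and is dark in most cells at the left end.

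The members did not vary as a single block. Over the 80 cells the 45 pairs had Pearson correlations of log2(CPM + 1) from -0.08 to 0.61, with a median of 0.20, and 41 were above 0. In the 68 cells without high immunoglobulin or mitochondrial reads the range was -0.15 to 0.57, the median 0.14 and 37 were above 0, and without the high-mitochondrial cells alone the median was 0.11. The points share 1 sort and 1 assay, and both genes of a pair are scaled by the same cell's depth, so these values describe these cells. Over all 80 cells the 3 EGR genes and Nr4a1 formed the tightest group. Its 6 pairs lay between 0.41 and 0.61, and between 0.35 and 0.57 in the 68 cells without high immunoglobulin or mitochondrial reads. In those 68 cells the group was not set apart. Nr4a1 with Nr4a2 (0.39) and Egr1 with Fosb (0.38) were above its lowest pair, Egr2 with Nr4a1 (0.35). Egr3 and Nr4a1 had r = 0.61, each being the closest of 6933 genes to the other. They were the one such pair, as every other member had genes outside the list closer to it than any member. The closest member ranked 3 for Egr2 (Egr1), 10 for Nr4a2 (Nr4a1), 13 for Egr1 (Nr4a1), 16 for Fosb (Egr1) and 24 for Fos (Ier2). It ranked 55 for Ier2 (Fos), 118 for Nr4a3 (Egr3) and 159 for Atf3 (Nr4a2). Pearson's r for Egr3 and Nr4a1 was between 0.57 and 0.61 in every cell subset, depth and scale tried. By rank the pair was lower, with Spearman's rho of 0.55 in all 80 cells and 0.496 in the 68 cells.

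By contrast, Fos, Fosb and Ier2, although induced by the same kinds of signal, had r between 0.10 and 0.37 among themselves, with Fos and Ier2 the highest pair. Without the cells high in mitochondrial reads, Fos and Ier2 were at 0.24 and the lowest pair of the 3 at -0.06. The NR4A family did not group by family either. Nr4a1 and Nr4a2 had r = 0.35, Nr4a1 and Nr4a3 0.21, and Nr4a2 and Nr4a3 0.12, the pair that stood apart together in the IL4Ra-/- bulk library. Atf3 stood alone, with r from -0.08 to 0.27 and a median of 0.00 over its 9 pairs, the highest being with Nr4a2.

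**Figure D4:**
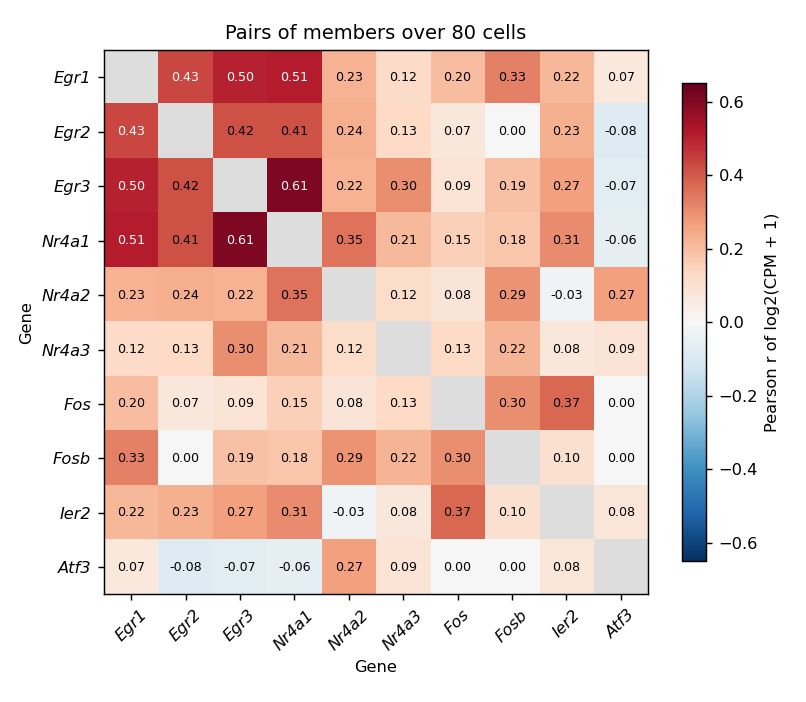
Pearson r of log2(CPM + 1) for each pair of members over 80 single WT cells, with genes on both axes and the diagonal in grey. The block of Egr1, Egr2, Egr3 and Nr4a1 at the upper left holds the 6 pairs from 0.41 to 0.61, and the Atf3 row is near 0 apart from Nr4a2 at 0.27.

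Genes outside the list were ranked by their correlation with the mean log2(CPM + 1) of the 10 members, over 6924 genes detected in at least 8 cells. The closest was Il4, with r = 0.62 and Spearman's rho of 0.58, where all genes had a median r of 0.13 and a 95th percentile of 0.33. The cells had been sorted as high in an IL-4 reporter, so the range of Il4 here is the range left by that gate. Il4 was closest to Nr4a1 (r = 0.49) and Nr4a3 (0.49) among single members, and at -0.04 to Atf3. It was also the closest of all genes to Nr4a3. Next came Nfkbiz (0.59), an inducible nuclear IκB protein needed for Il6 induction, and Nedd9 (0.55), an adhesion scaffold protein. Gm15772 (0.55), Hs3st1 (0.53), a heparan sulfate sulfotransferase, Rgs2 (0.53), a regulator of G protein signaling, and Hnrnpc (0.52) followed. In the 68 cells without high immunoglobulin or mitochondrial reads Il4 was still first (0.55), and Nfkbiz, Nedd9 and Rgs2 were still among the 8 closest. The other 4 there were Btg2, Ell2, Rps6kb2 and Jarid2, so the lower places depend on which cells are counted. Other activation cytokines were less close to the mean of the members over all 80 cells: Lif had r = 0.42, Il6 0.30, Il13 0.29 and Tnf 0.24, where Il13 was detected in only 12 cells and Tnf in 22.

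The mean of the members also moved with cell quality. Its r was 0.28 with log10 gene reads, 0.39 with the number of genes with a read, -0.33 with the percent of mitochondrial reads and -0.30 with the percent of immunoglobulin reads. In the 68 cells without high immunoglobulin or mitochondrial reads these were 0.08, 0.23, -0.25 and -0.15. The 2 cells with the lowest mean, 2.66 and 2.67, had 36.2% and 35.7% mitochondrial reads, and the first also had 48.1% immunoglobulin reads. The next lowest, at 2.755, had 37.5% mitochondrial reads. After it, cells at 3.01, 3.328 and 3.329 had 4.25%, 2.36% and 7.32% mitochondrial reads, and the one at 3.328 had 73.2% immunoglobulin reads. The 2 cells with the highest mean, 9.87 and 9.17, had 1.55% and 2.18%. The part of cell quality in the correlations among members was not tested beyond these subsets. The cell with 73.2% immunoglobulin reads had 9.65 CPM of Egr1 but 1615 CPM of Fos and 636 CPM of Fosb.

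The bulk and single-cell data both describe MMC9s of the small intestine, but come from different mouse models and from different kinds of library, whose parts cannot be told apart. Set side by side, Fosb was the member that differed most. Its 9961 CPM in IL4RaY709F bulk, 8347 CPM in IL4Ra-/- bulk and 11120 CPM in WT bulk were each above all 80 single cells, of which the highest had 5807 CPM. Among genes with at least 50 reads in the bulk library, 2.55% were above every cell in this way in IL4RaY709F and 2.57% in IL4Ra-/-, against 2.69% in WT. On the log2(CPM + 1) scale WT bulk was 4.96 above the mean of the cells for Fosb, which ranked 57 among 6013 genes. In the WT bulk library Fosb made up 48.8% of the members' CPM, and in the cells 4.58%, where it ranked 404 among all genes.

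The other members fell between Fosb and Egr1. WT bulk was 2.38 above the mean of the cells for Nr4a1, 2.12 for Nr4a3, 1.61 for Ier2, 1.24 for Nr4a2 and 1.20 for Fos, on the same scale. Thus 6 of the 10 were at least 2-fold higher in WT bulk, where 34.7% of all genes were and the median gene was 0.42 higher. Atf3 (0.64) and Egr2 (0.50) were near that median. Egr3 (-0.20) and Egr1 (-0.88) were lower in WT bulk than in the mean of the cells. All JUN genes lay on the same side as Fosb: WT bulk was above the mean of the cells by 5.58 for Jund, 4.06 for Junb and 3.27 for Jun. Against the 68 cells without high immunoglobulin or mitochondrial reads, Fosb was at 5.08, Nr4a1 at 2.19 and Egr1 at -1.03.

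**Figure D5:**
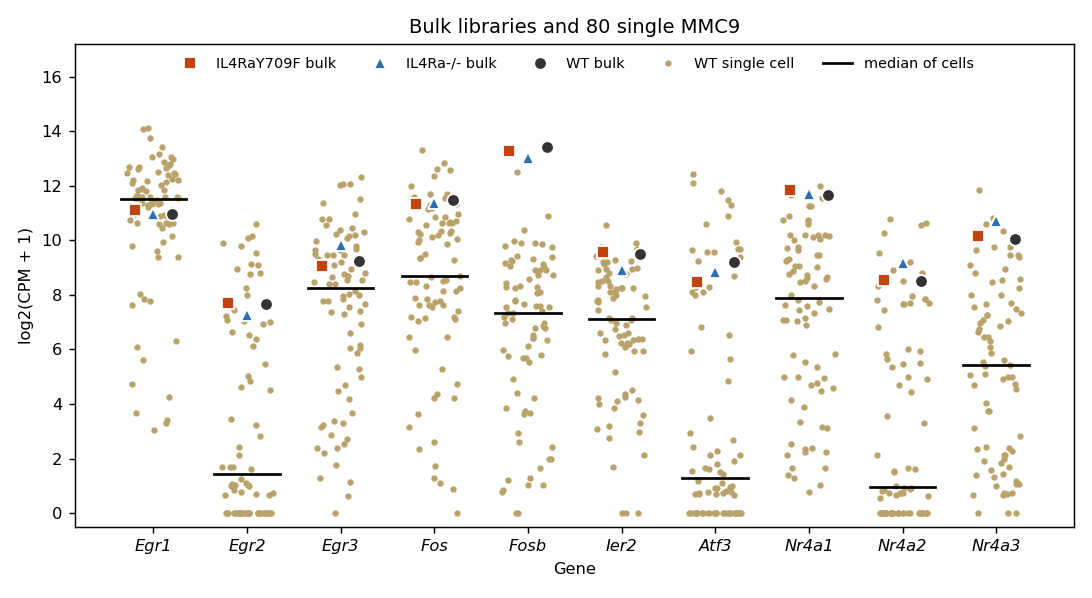
Level of each member as log2(CPM + 1) (y axis) in the IL4RaY709F, IL4Ra-/- and WT bulk libraries (large symbols, 1 library each) and in 80 single WT cells (small points, with their median as a line). For Fosb all 3 bulk libraries lie above every cell, and for Egr1 all 3 lie below the median cell.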

How the data were processed

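The submitters' processing notes name HISAT, featureCounts and Subread 2.0.0. What the authors deposited are raw counts of reads per gene, as whole numbers, for the bulk libraries and for each cell. The sources used here give neither the strand setting nor the rule for reads that map more than once. The notes name GRCm38 and mm9, and 54851 of 55144 matched genes had the same position in GENCODE M21 on GRCm38, Ier2 being a member that did not.

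From the counts, CPM of the bulk libraries was scaled by edgeR 4.0.16 (trimmed mean of M-values, TMM), and RPKM used the lengths in the tables. Ratios have exact 95% intervals (Clopper-Pearson, conditional on the summed reads). A gene at 0 reads was set to 3 reads. Reads are not independent molecules, so intervals cover counting error only. With 1 library per genotype there is no replicate check and no p-value.

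Cells needed 10000 gene reads, and detection needed 10 reads. No doublet caller was run on the singly sorted cells, and no clusters were formed. Likeness was Pearson's r of log2(CPM + 1) over genes detected in at least 8 cells. Named genes are the members, every gene of the pathway lists called against WT, Jun, Junb, Jund, Dusp1, Nab1, Nab2, Srf, Il13 and Il6, and the 8 genes most like the members, of which 1 is not reported here. Lif, Tnf, the single markers of other cells, Gm24748 and the genes ranked over 68 cells were named after their values were seen. The members and lists were chosen with earlier results of these data known. Promoter windows are from RefSeq on GRCm38.p6, without Egr1, Egr3 and Ier2, which are not shown. Alternatives were other scalings (total gene reads and DESeq2 size factors, version 1.42.0), read minimums, a 1.5-fold line, detection thresholds, thinned cells and cell subsets.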

Additional observations from a re-analysis of the deposited data

Results flagged for a closer look

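The 1 single cell left out for its depth held 1225 reads in genes. Even so, Egr1 had 6 reads in it, above the 3 reads set as the floor but under the 10 reads that count as detection. Besides the share of cells recomputed over all 81 cells, no result used this cell. All members together had 13 reads there, among them 2 of Egr3 and 2 of Fos, and none of Fosb, Atf3, Nr4a2 or Nr4a3.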

How the results depend on the processing

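No member passed the 2-fold line with DESeq2 size factors or with a read minimum of 20, 200 or none, in any of the 3 comparisons. With total gene reads the count stayed at 0 against WT and became 1 for IL4RaY709F against IL4Ra-/-, where Egr3 passed. At a 1.5-fold line the counts were 1 for IL4RaY709F against WT, 4 for IL4Ra-/- against WT and 3 for IL4RaY709F against IL4Ra-/-. Of 30 log2 ratios of members, 25 left their counting interval with total gene reads and none with DESeq2 size factors, under which 1 turned sign. The median share of cells with a member was 78.1% at 10 reads, 96.9% at 1 read, and between 66.9% and 82.4% under the other settings. The r of the members' mean with log10 gene reads was 0.28 and lay between 0.27 and 0.32 with another pseudocount, thinned cells or without the 2 cells farthest from the median depth. It was 0.0278 without the cells over 20% mitochondrial reads and 0.0769 without those or the cells over 40% immunoglobulin reads. The cause was not tested. These cell subsets, and the alternatives for the correlations among genes, were chosen after seeing the data. No paired analysis was possible because each genotype has 1 library. Leaving out a replicate was not possible for the same reason, so nothing here shows how animals or pools of 1 genotype differ.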
